A study of Mus musculus with 12 samples.

Results

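Periostin (Postn) and 9 other genes that encode secreted glycoproteins of the extracellular matrix were examined by bulk RNA sequencing in the dorsal root ganglia (DRG) of mice that lack Nf2 in Schwann cells, with or without Fak. The genes were taken by name from a table of 49315 genes: Postn, Tgfbi, Tnc, Thbs4, Matn2, Matn4, Fndc1, Nell1, Nell2 and Megf6. They were chosen by family and selected on the difference between genotypes, in the knowledge of earlier results of these data, so for that difference their levels and fold changes are a description and no p-value is given for any of them. All 10 passed the filter on low counts, as did 18295 genes in all. The Nf2 group comprised 6 mice with the Postn-Cre transgene and 2 floxed Nf2 alleles. The DKO (double knockout) group comprised 6 mice that carried, besides the transgene and the floxed Nf2 alleles, 2 floxed alleles of Fak, the gene annotated as Ptk2. All animals were 10 months old, about 8 DRG per mouse were pooled into 1 library, and each genotype had 3 mice labelled male and 3 labelled female. The samples of a group were separate mice.

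All 12 libraries came from Cre-positive animals that had lost Nf2, so the values below compare DKO with Nf2 ganglia and not with normal ganglia. Recombination is limited to cells that have used the Periostin promoter of the transgene and to their descendants. For these mice the cells with loss of Nf2 are described as Schwann cells and their precursors. Cells without recombination keep both genes. Which cells of these ganglia recombined was not measured. In bulk tissue, fewer cells of a type and less RNA per cell cannot be told apart. The total count per mouse was 21129191 to 41250329, and both ends of this range were DKO mice. Levels are given as CPM, the counts scaled to that total, with mean ± SD over 6 mice. Values by mouse follow the order 649, 702, 884, 918, 1048 and 1049 for Nf2 and 885, 886, 887, 914, 915 and 917 for DKO mice. Ptk2 had 70.0 ± 3.60 CPM in Nf2 and 64.0 ± 10.4 CPM in DKO mice (log2 fold change -0.15 ± 0.10, SE, edgeR adjusted p of 0.529). Nf2 had 128 ± 12.4 CPM in Nf2 and 118 ± 11.2 CPM in DKO mice (log2 fold change -0.14 ± 0.08, edgeR adjusted p of 0.435), and neither whole-gene count separated the genotypes. Genes listed as markers of sensory neurons summed to 5649 to 7677 CPM and those listed for satellite glia to 1762 to 2176 CPM over the 12 mice. None of these genes was at 0 in any mouse. The satellite glia sum, in which Hmgcs1 and Kcna1 were the most abundant, is not a measure of those cells alone. Nf2 mouse 702, labelled male, had 496 CPM of Xist and 0.525 CPM of Ddx3y. These values lay within those of the libraries labelled female (428 to 637 CPM and 0.150 to 0.852 CPM) and apart from the other males (0.364 to 6.17 CPM and 76.0 to 86.3 CPM).

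Matricellular glycoproteins are secreted into the matrix and act mainly as adaptors between collagen, proteoglycans, growth factors and cell surface receptors. Many of them bind integrins, whose engagement with matrix is signalled inside the cell through focal adhesion kinase, the product of Fak. Periostin and tenascin C are best known in nerve from development, injury and tumors, where Schwann cells and fibroblasts secrete them, and both are induced by TGF-beta in many tissues.

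The 250 bases in front of the RefSeq start were read from the GRCm38.p6 assembly for the genes that RefSeq entries matched, 8 of the 10 (11 promoter windows). Matn2 and Nell2 had no entry. The windows shown are those of Postn, since the gene's promoter drives the Cre transgene, of Fndc1 and Matn4, which were lower in DKO mice, and of Megf6, which was higher. They lie 5′ to 3′ on the strand of the gene at chr3:54360857-54361106 (plus), chr17:7827303-7827552 (minus), chr2:164405161-164405410 (minus) and chr4:154170463-154170712 (plus). Capitals mark a match to a searched motif on either strand. For Postn the second of its 2 windows is shown, and the first, at chr3:54359017-54359266, held no match. For Matn4 the first of its 2 windows is shown.
Postn: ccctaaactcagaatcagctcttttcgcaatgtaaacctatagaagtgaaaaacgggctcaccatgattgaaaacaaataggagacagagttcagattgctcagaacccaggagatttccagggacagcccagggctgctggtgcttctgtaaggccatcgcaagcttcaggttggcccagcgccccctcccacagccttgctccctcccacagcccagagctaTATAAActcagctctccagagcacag
Fndc1: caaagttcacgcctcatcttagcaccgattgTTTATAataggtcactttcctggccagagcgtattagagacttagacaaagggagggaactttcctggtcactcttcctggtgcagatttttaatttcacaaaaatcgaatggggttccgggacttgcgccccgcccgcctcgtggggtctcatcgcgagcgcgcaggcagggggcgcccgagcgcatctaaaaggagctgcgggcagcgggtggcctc
Matn4: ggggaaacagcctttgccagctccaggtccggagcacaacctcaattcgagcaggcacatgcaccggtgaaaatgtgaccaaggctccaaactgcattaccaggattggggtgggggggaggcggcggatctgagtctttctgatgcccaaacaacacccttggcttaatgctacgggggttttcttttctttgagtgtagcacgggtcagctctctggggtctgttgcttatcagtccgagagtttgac
Megf6: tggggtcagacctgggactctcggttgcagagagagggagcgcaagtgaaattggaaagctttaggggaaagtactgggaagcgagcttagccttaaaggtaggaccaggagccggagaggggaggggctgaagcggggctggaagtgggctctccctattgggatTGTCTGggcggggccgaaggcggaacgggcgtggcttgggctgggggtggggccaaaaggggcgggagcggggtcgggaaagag

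The capitals in Postn are TATAAA, the TATA box, 26 bases before the start. In Fndc1 they are the same motif on the opposite strand, 219 bases before the start, and in Megf6 they are CAGACA, the core of the SMAD-binding element, on the opposite strand 84 bases before the start. The 4 motifs below were searched on both strands. A gene was counted if any of its windows held the motif, and Postn, Tnc and Matn4 had 2 windows each. The percentages of all promoters count single windows, so the shares are not like for like. A TATAAA match was found in 3 of the 8 genes (Postn, Tnc, Fndc1) against 12.4% of 32851 promoters of the same length. A match to CAGACA was found in 3 (Tnc, Thbs4, Megf6) against 17.1% of all promoters, and a match to GGAATG, which TEAD factors bind, in 2 (Thbs4, Matn4 in a second window) against 12.6%. None of the 8 held TGANTCA, the AP-1 site, which 6.75% of all promoters did. The shown windows had a GC content of 52.0% (Postn), 56.0% (Fndc1), 54.4% (Matn4) and 63.2% (Megf6), beside a median of 52.4% over all promoters. These matches describe the letters of the windows alone.

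Per length of annotated exon, Matn2 was the most abundant of the 10 transcripts in both genotypes, with 77.6 ± 14.0 CPM per kb in Nf2 and 47.4 ± 8.63 CPM per kb in DKO mice. Tgfbi followed at 29.0 ± 4.73 CPM per kb in Nf2 and 25.8 ± 4.34 CPM per kb in DKO mice. In Nf2 mice the order then ran Matn4 (11.8 CPM per kb), Postn (6.04), Fndc1 (3.84), Thbs4 (3.15), Tnc (1.83), Nell2 (1.60), Nell1 (0.504) and Megf6 (0.233). Ranges of neighbours in this order did not overlap from Matn2 down to Postn nor between Nell2 and Nell1, whereas the other neighbours overlapped. In DKO mice the order below Tgfbi was Postn (8.09 CPM per kb), Thbs4 (6.34), Matn4 (5.11), Nell2 (2.25), Tnc (1.88), Fndc1 (1.66), Nell1 (1.30) and Megf6 (0.673). There, only Matn2 against Tgfbi, Tgfbi against Postn and Nell1 against Megf6 did not overlap. Matn4 and Fndc1 thus stood lower in the order of DKO mice, and Thbs4, Nell2 and Postn higher.

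**Figure D1:**
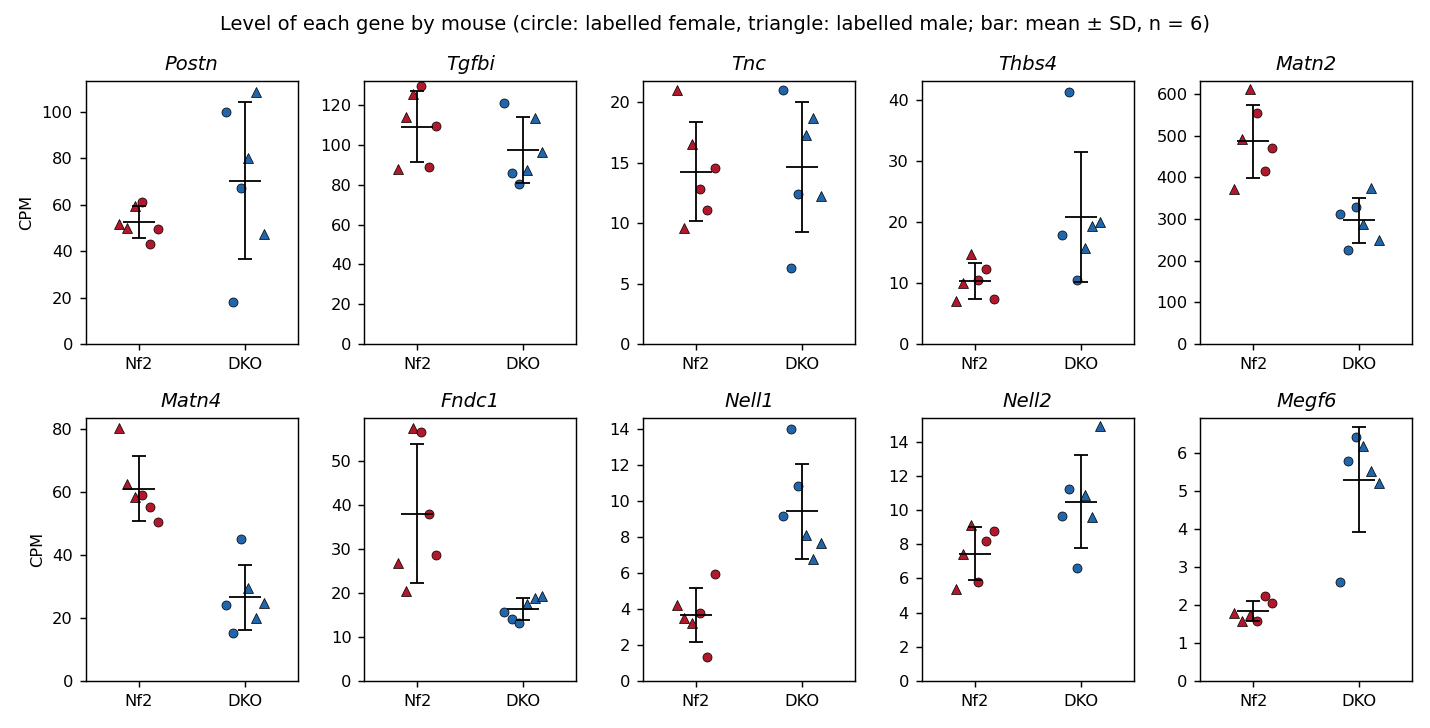
CPM of each of the 10 genes in each mouse (points), with the mean and SD of 6 Nf2 and 6 DKO mice (lines), each panel on its own axis from 0. Matn4 and Fndc1 were lower, and Nell1 and Megf6 higher, in every DKO mouse than in any Nf2 mouse, while the DKO values of Postn ran from 18.4 to 109 CPM.

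Across all tested genes, 172 (0.940%) passed edgeR's adjusted threshold of 0.05. In DKO mice 68 of them (0.372%) were higher and 104 (0.568%) lower. Of the 10 glycoprotein genes 5 passed, with Nell1 and Megf6 higher and Matn2, Matn4 and Fndc1 lower. These shares stand side by side as a description, because the genes were listed with this contrast known. By fitted value 6 were higher and 4 lower, with a median log2 fold change of 0.21 beside 0.00 for all tested genes. Values of the 2 genotypes did not overlap for Nell1 and Megf6 (higher in DKO, as for 0.902% of all genes) and for Matn4 and Fndc1 (lower, as for 1.04%). The fitted values of the genes that passed lay between -1.23 and 1.52 on the log2 scale. The 5 that did not pass were Postn, Tgfbi, Tnc, Thbs4 and Nell2, with fitted values of -0.19 to 0.99, and Thbs4 passed in DESeq2.

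**Figure D2:**
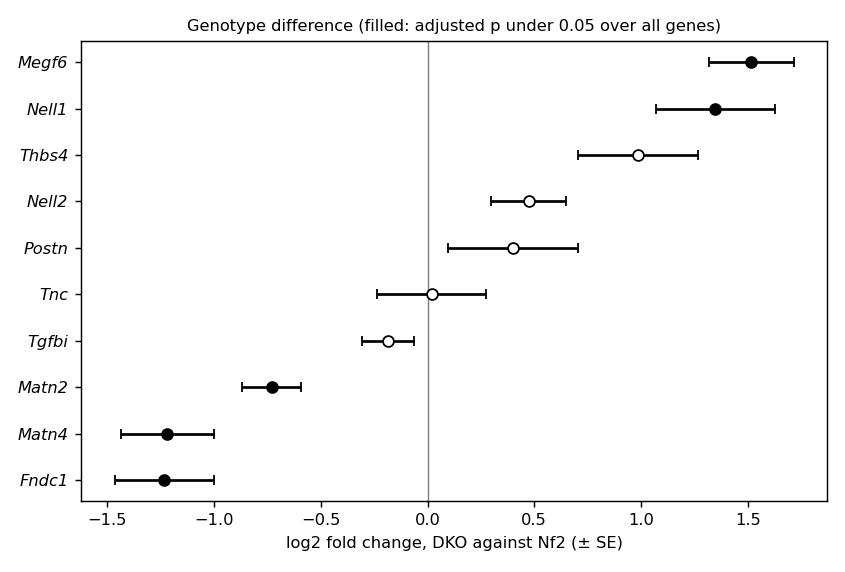
Log2 fold change of DKO against Nf2 mice (points) with its standard error (bars) for the 10 genes, in order of size, from the edgeR fit over all 18295 genes. Megf6 and Nell1 stand at the upper end and Matn2, Matn4 and Fndc1 at the lower end, with filled points for genes past the adjusted p of 0.05.

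Postn (ENSMUSG00000027750, GRCm38 chromosome 3, 54361109 to 54391037) encodes periostin, a secreted protein with fasciclin domains that binds integrins and collagen. It had 51.8, 50, 59.7, 61.1, 43.0 and 49.8 CPM in the Nf2 mice. Values of 99.95, 18.4, 67.5, 80.3, 109 and 47.6 CPM were found in the DKO mice. Nf2 mice lay close together, whereas 4 DKO mice lay above all of them, 1 below all of them and 1 within their range. The mean was 52.6 ± 6.77 CPM in Nf2 and 70.4 ± 33.7 CPM in DKO mice (log2 fold change 0.40 ± 0.30, SE). The highest DKO mouse had 5.93-fold the level of the lowest, against 1.42-fold among Nf2 mice. The coefficient of variation was 12.9% in Nf2 and 47.9% in DKO mice, a ratio of 3.72, and 0.864% of all tested genes had a ratio at least as high (median 0.962). The log2 fold change of Postn was 0.24 without DKO mouse 915, 0.28 without 885 and 0.60 without 886, and it stayed short of the threshold in each of the 12 fits without 1 mouse. The table held no row for the Cre transgene itself.

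Tgfbi (ENSMUSG00000035493, chromosome 13, 56609523 to 56639562) encodes the TGF-beta-induced protein, the closest relative of periostin. It had 87.7, 114, 126, 130, 88.7 and 110 CPM in the Nf2 mice. Among DKO animals the level was 121, 86.0, 80.5, 87.2, 113 and 96.5 CPM. The groups overlapped, with 3 DKO mice below all Nf2 mice and 3 within their range. Means were 109 ± 17.8 CPM in Nf2 and 97.4 ± 16.4 CPM in DKO mice (log2 fold change -0.19 ± 0.12, SE). Per length, the ratio of Postn to Tgfbi within a mouse was 0.190 to 0.256 in Nf2 and 0.0925 to 0.416 in DKO mice.

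Tnc and Thbs4 encode modular glycoproteins of developing and injured tissue. Tnc (ENSMUSG00000028364, chromosome 4, 63959785 to 64047015), for tenascin C, is secreted at sites of nerve repair and modulates adhesion. Its level was 20.997, 9.56, 16.5, 12.8, 11.1 and 14.6 CPM in the Nf2 mice. The DKO mice had 20.98, 6.26, 12.4, 17.3, 18.7 and 12.3 CPM. The groups covered almost the same range apart from the low value of mouse 886, with means of 14.3 ± 4.12 CPM in Nf2 and 14.6 ± 5.37 CPM in DKO mice (log2 fold change 0.02 ± 0.25, SE). The sign of this value changed when single mice were left out (-0.11 to 0.17).

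Thbs4 (ENSMUSG00000021702, chromosome 13, 92751590 to 92794818) encodes thrombospondin-4, which is made in tendon, muscle and neural tissue, rises in injured sensory ganglia and binds the calcium channel subunit encoded by Cacna2d1. It had 7.07, 10.1, 14.8, 10.5, 12.2 and 7.44 CPM in the Nf2 mice. Values of 17.9, 41.3, 10.6, 15.8, 19.3 and 20.04 CPM were found in the DKO mice. All DKO mice but 887 lay above all Nf2 mice, and mouse 886 stood highest. Means were 10.4 ± 2.93 CPM in Nf2 and 20.8 ± 10.6 CPM in DKO mice (log2 fold change 0.99 ± 0.28, SE), and the fitted value was 0.67 without mouse 886. Markers of meninges also stood highest in mouse 886, with a summed level of 410.5 CPM against 226.1 to 326.1 CPM in the other DKO and 222.9 to 240.7 CPM in the Nf2 mice. Their part in the level of Thbs4 was not tested.

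Matrilins bridge collagen fibrils and proteoglycans in the matrix, and matrilin-2 is deposited around Schwann cells. Matn2 (ENSMUSG00000022324, chromosome 15, 34306677 to 34436273, 38.8 Mb from Ptk2) had 372, 492, 612, 555, 416 and 469 CPM in the Nf2 mice. Among DKO animals the level was 313, 227, 328, 288, 375 and 249.6 CPM. Only DKO mouse 915 reached the range of the Nf2 mice. Means were 486 ± 87.8 CPM in Nf2 and 297 ± 54.1 CPM in DKO mice, 1.66-fold lower in the fit (log2 fold change -0.73 ± 0.14, SE). Matn4 (ENSMUSG00000016995, chromosome 2, 164389393 to 164405160) encodes matrilin-4, a matrilin found in connective tissue and brain. It had 80.2, 62.5, 58.3, 59.0, 55.1 and 50.5 CPM in the Nf2 mice. The DKO mice had 24.1, 15.1, 45.1, 29.6, 20.1 and 24.7 CPM. Every DKO mouse was below every Nf2 mouse, with 60.9 ± 10.3 CPM in Nf2 and 26.5 ± 10.3 CPM in DKO mice, 2.33-fold lower in the fit (log2 fold change -1.22 ± 0.22, SE). The ratio of Matn4 to Matn2 within a mouse, per length, was 0.158 ± 0.053 in Nf2 and 0.108 ± 0.0364 in DKO mice and overlapped. When single mice were left out, Matn2 stayed between -0.81 and -0.66 on the log2 scale and fell short of the threshold without mouse 702, 884, 885, 914, 917, 918 or 1049. Matn4 stayed between -1.45 and -1.10 and fell short without mouse 885 or 917.

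Fndc1 (ENSMUSG00000071984, chromosome 17, 7738569 to 7827302) encodes a protein with fibronectin type III domains that was first described as an activator of G-protein signalling. It had 26.9, 20.4, 57.7, 56.7, 38.0 and 28.6 CPM in the Nf2 mice. Values of 15.6, 14.1, 13.1, 17.5, 18.8 and 19.3 CPM were found in the DKO mice. The DKO mice lay in a narrow band below the widely spread Nf2 mice. Means were 38.1 ± 15.9 CPM in Nf2 and 16.4 ± 2.55 CPM in DKO mice, 2.35-fold lower in the fit (log2 fold change -1.23 ± 0.23, SE). Fndc1 fell short of the threshold without mouse 885, 886, 914 or 918, with fitted values of -1.36 to -1.08 over the 12 fits without 1 mouse.

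Skeletal muscle markers differed between the same mice. All 16 were lower in DKO by fitted value (median log2 fold change -2.09). None passed in edgeR or limma voom on all mice (0 in each), while 14 had an unadjusted p under 0.05 in edgeR. The share of all genes under that unadjusted p is not given here. Casq1 passed in DESeq2 and in edgeR without mouse 702 (1 in each), and 4 passed in females only (Casq1, Myh1, Myh2 and Mylpf) against 0 in males only, where 13 were lower and 3 higher by fitted value. Their sum, in which Myh1 and Atp2a1 were the most abundant, was 116.2, 20.9, 870, 1241, 761 and 996 CPM in the Nf2 mice, and 29.7 to 404 CPM in DKO mice. Mouse 702, with the lowest sum of muscle markers of all 12, had 20.4 CPM of Fndc1, the lowest of the Nf2 mice and above every DKO mouse. Within genotypes, Fndc1 and the mean log2 level of the muscle markers were related over the 12 mice with a Pearson r of 0.77 (permutation p = 0.0144, adjusted p = 0.193 over 130 pairs of a gene and a marker list) and a Spearman rho of 0.68 (permutation p = 0.0288). Without the 2 mice farthest from the median, r was 0.65. With the muscle level as a covariate, the log2 fold change of Fndc1 was -0.84 and no longer past the threshold, as were those of Matn2 (-0.67) and Nell1 (1.20), while Matn4 (-1.30) and Megf6 still passed. Over all genes, 99 passed in that fit, against 172 without the covariate. Within genotypes, r with the muscle list was 0.23 for Matn2 (permutation p = 0.513) and -0.29 for Nell1 (permutation p = 0.461). The muscle level itself differed between genotypes, so this fit cannot tell the 2 apart. The part of muscle in the levels of Fndc1, Matn2 and Nell1 was not tested.

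The NELL proteins are secreted, carry thrombospondin-like and EGF-like domains, and bind Robo receptors. NELL1 is known from bone formation and NELL2 from neurons and axon guidance. Nell1 (ENSMUSG00000055409, chromosome 7, 49974864 to 50866608) had 4.22, 3.49, 3.21, 3.75, 1.36 and 5.94 CPM in the Nf2 mice. Among DKO animals the level was 9.18, 14.0, 10.8, 8.12, 6.79 and 7.69 CPM. No DKO mouse was as low as any Nf2 mouse. Means were 3.66 ± 1.49 CPM in Nf2 and 9.44 ± 2.64 CPM in DKO mice, 2.55-fold higher in the fit (log2 fold change 1.35 ± 0.28, SE). Its lowest count was 37 (mouse 1048), where counting alone gives a coefficient of variation of 16.4%. Nell1 passed the threshold in 4 of 12 fits without 1 mouse (1.17 to 1.53) and fell short without mouse 702, 884, 885, 886, 887, 914, 917 or 918. Nell2 (ENSMUSG00000022454, chromosome 15, 95075230 to 95528559, 21.6 Mb from Ptk2) had 5.41, 7.43, 9.12, 5.82, 8.21 and 8.78 CPM in the Nf2 mice. The DKO mice had 9.64, 11.2, 6.63, 10.9, 9.62 and 14.9 CPM. All DKO mice but 887 lay above all Nf2 mice, with means of 7.46 ± 1.55 CPM in Nf2 and 10.5 ± 2.72 CPM in DKO mice (log2 fold change 0.47 ± 0.18, SE). The Nell1 level per length was 0.106 to 0.501 of the Nell2 level in Nf2 mice and 0.330 to 1.05 of it in DKO mice.

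Megf6 (ENSMUSG00000057751, chromosome 4, 154170730 to 154275713) encodes a secreted protein of many EGF-like domains. It was the least abundant of the 10 per length and had the highest fold change. Its level was 1.79, 1.58, 1.74, 1.59, 2.24 and 2.06 CPM in the Nf2 mice. Values of 2.62, 5.79, 6.44, 6.18, 5.54 and 5.23 CPM were found in the DKO mice. The Nf2 mice were close together, 5 DKO mice lay at more than 5 CPM, and mouse 885 lay between. Means were 1.83 ± 0.264 CPM in Nf2 and 5.30 ± 1.38 CPM in DKO mice, 2.86-fold higher in the fit (log2 fold change 1.52 ± 0.20, SE). The counts behind these values were 42 to 255, and Megf6 passed in all 12 fits without 1 mouse (1.44 to 1.66).

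DKO mice 886 and 887 each stood at an end of the DKO range in 6 of the 10 genes. Mouse 886 was lowest in Postn, Tnc, Matn2 and Matn4, and highest in Thbs4 and Nell1. Mouse 887 was lowest in Tgfbi, Thbs4, Fndc1 and Nell2, and highest in Matn4 and Megf6. Some mouse must hold each end, and genes whose levels may move together are counted separately. The counts of ends were not set against chance. Mouse 886 had the lowest Ptk2 level of all 12 mice, 46.5 CPM.

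Labelled sex, which the choice of the genes did not use, was tested with genotype as a covariate. Of all genes, 3 (0.0164%) passed an edgeR adjusted p of 0.05 for male against female (Eif2s3y, Uty and Ddx3y), and none of the 10 glycoprotein genes did, nor at an unadjusted p under 0.05 or in DESeq2 (0 in each). Their log2 differences of male minus female ran from -0.32 (Nell1) to 0.29 (Tnc), each with an adjusted p above 0.99. For the dependence of the genotype difference on sex, 2 genes of all (0.0109%) passed (Trim5 and Trim12a), and again 0 of the 10 did in edgeR, at an unadjusted p under 0.05 or in DESeq2. The lowest edgeR adjusted p among them was 0.920. Over all 18295 genes, 533 had an unadjusted edgeR p under 0.05 for sex and 874 for the interaction. At such shares 0 of any 10 genes would not be unusual, so these counts are no result about the glycoprotein genes. Nell1 went from a mean of 3.68 to 11.3 CPM in females and from 3.64 to 7.53 CPM in males, an interaction of -0.62 ± 0.53 (SE, log2) with an edgeR adjusted p of 0.920. Fndc1 went from 41.1 to 14.3 CPM in females and from 35.0 to 18.5 CPM in males, an interaction of 0.56 ± 0.47 with the same adjusted p. The labels of mouse 702 enter these tests as given, and without that mouse 0 of the 10 passed either test.

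The other genes of these families and their partners were examined as lists, fitted with all genes. Counts at an unadjusted p under 0.05, here and for the marker lists, stand without the share of all genes beside them. A gene at an unadjusted edgeR p of 0.0498 had an adjusted p of 0.335, so such p-values were common over all genes. These counts are therefore no measure of enrichment. Among 19 relatives of the 10 genes (stabilins, tenascins, thrombospondins, matrilins and proteins with MEGF or FNDC names), 17 were tested, since Matn1 and Matn3 had too few counts. None passed in edgeR, DESeq2 or limma voom (0 in each), 2 had an unadjusted p under 0.05 (Stab1 and Tnxb), and 6 were higher and 11 lower (median log2 fold change -0.06). Stab1, the fasciclin-domain scavenger receptor and a distant relative of periostin, had the smallest p: 24.8 ± 3.59 CPM in Nf2 and 29.8 ± 3.63 CPM in DKO mice (log2 fold change 0.25 ± 0.10, SE, edgeR adjusted p of 0.275).

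Of 19 receptors and binding partners, 1 passed the threshold, with 10 higher and 9 lower and a median log2 fold change of 0.02. Itga8 encodes the integrin alpha 8 chain, which with integrin beta 1 binds tenascin C, fibronectin and nephronectin. It fell from 11.5 ± 2.65 CPM in Nf2 mice (7.50 to 14.9) to 5.24 ± 1.23 CPM in DKO mice (3.64 to 6.86), without overlap. The fitted difference was -1.16 ± 0.18 (log2, SE), and edgeR's adjusted p was 0.0089.

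Among 55 other matrix glycoproteins (such as SPARC, fibulins, fibrillins, CCN and SLIT proteins), 0 passed in edgeR, 6 in DESeq2 (Efemp2, Igfbp7, Pcolce, Spon1, Vtn and Vwa1) and 4 in limma voom (Igfbp7, Nov, Slit2 and Vtn). At an unadjusted p under 0.05 were 17, 7 higher and 10 lower, and by fitted value 24 were higher and 31 lower (median log2 fold change -0.05). Igfbp7, which binds insulin-like growth factors and collagen, had the smallest p, with 142 ± 23.7 CPM in Nf2 and 94.7 ± 19.5 CPM in DKO mice (log2 fold change -0.61 ± 0.14, SE, edgeR adjusted p of 0.0562). Of 20 genes of TGF-beta signalling, the inducer of several of these proteins, 0 passed in edgeR or limma voom and 1 in DESeq2 (Tgfb3). The list had 5 higher and 15 lower members (median log2 fold change -0.12), and 6 had an unadjusted p under 0.05. Tgfb3, a ligand of the pathway, had 39.7 ± 3.55 CPM in Nf2 and 32.4 ± 2.95 CPM in DKO mice (log2 fold change -0.31 ± 0.08, SE, edgeR adjusted p of 0.0792).

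Covariation over mice was examined after the mean of each genotype had been removed from log2 CPM, which takes out the genotype difference. Of 45 pairs of the 10 genes, 2 passed a permutation test adjusted over the pairs. Postn and Matn2 covaried, with a Pearson r of 0.70 over 12 mice (permutation p = 0.00213, adjusted p = 0.0497) and a Spearman rho of 0.76 (permutation p = 0.00558, adjusted p = 0.143). Without the 2 mice farthest from the median r was 0.56, and within Nf2 and DKO mice alone it was 0.72 and 0.86. Tgfbi and Megf6 moved in opposite directions, with an r of -0.71 (permutation p = 0.00221, adjusted p = 0.0497) and a rho of -0.73 (permutation p = 0.00635, adjusted p = 0.143). Here r was -0.66 without the 2 farthest mice, -0.75 within Nf2 and -0.82 within DKO mice. Both calls were lost on library totals alone and without mouse 702. Postn and Tnc had the highest r of all pairs, 0.84 (permutation p = 0.00351, adjusted p = 0.0527, rho = 0.73 with permutation p = 0.0111). This r was 0.98 within DKO mice, 0.37 within Nf2 mice and 0.62 without the 2 farthest mice. Thbs4 and Matn4 had the lowest r, -0.78 (permutation p = 0.0173, adjusted p = 0.195, rho = -0.59 with permutation p = 0.0566). It was -0.92 within DKO and -0.31 within Nf2 mice, and -0.33 without the 2 farthest mice.

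**Figure D3:**
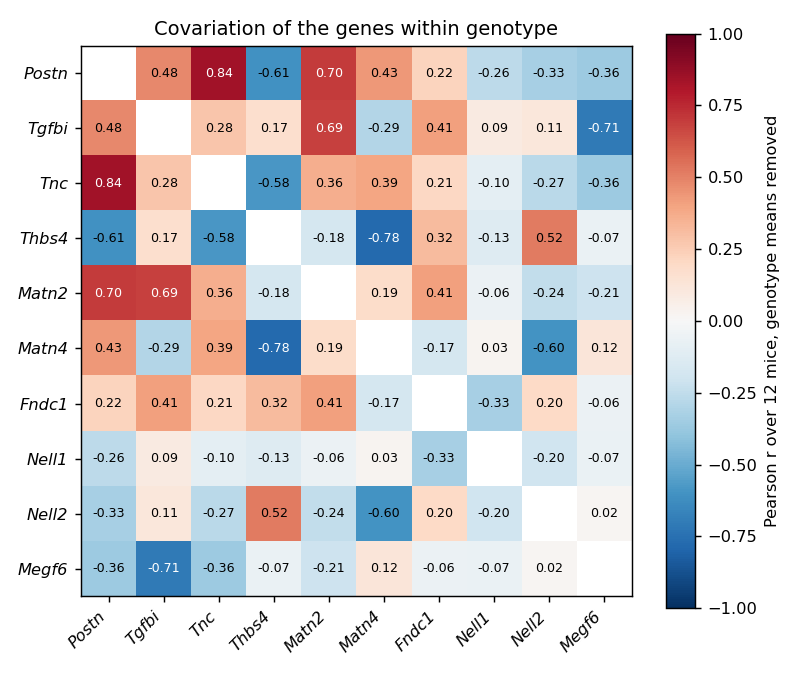
Pearson r of each pair of the 10 genes over 12 mice, computed on log2 CPM after removal of genotype means, from blue (-1) to red (1). The highest r is that of Postn and Tnc (0.84), followed by Postn and Matn2 (0.70) and Tgfbi and Matn2 (0.69), and the lowest are those of Thbs4 and Matn4 (-0.78) and Tgfbi and Megf6 (-0.71).

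Among 14181 other genes with a mean of at least 1 CPM, those whose deviations were most like those of Postn were Oxtr (r = 0.976), Col3a1 (0.969), Col1a2 (0.961), Col1a1 (0.958) and Arhgef16 (0.957). Their Spearman rho was 0.965, 0.874, 0.881, 0.846 and 0.846, and their r without the 2 farthest mice was 0.88, 0.837, 0.824, 0.771 and 0.813. All 12 points share their libraries, and these are the highest of many values. Col3a1, Col1a2 and Col1a1 encode the chains of the fibrillar collagens of connective tissue, and Oxtr encodes the oxytocin receptor. These collagens are also in the fibroblast marker list. With the mean of that list Postn had a Pearson r of 0.32 (permutation p = 0.337, adjusted p = 0.673) and a Spearman rho of 0.54 (permutation p = 0.0823). Of the marker lists, that of satellite glia had the highest r with Postn, 0.65 (permutation p = 0.0200, adjusted p = 0.200, rho = 0.63 with permutation p = 0.0358). This r was 0.37 without the 2 farthest mice. The macrophage list had an r of 0.47 with Postn (permutation p = 0.0326, adjusted p = 0.249) and a rho of 0.68 (permutation p = 0.0152). Its r was 0.69 without the 2 farthest mice. In DKO mouse 886, where Postn was lowest, Oxtr had 4.22 CPM (15.1 to 34.7 in the other DKO mice) and Col3a1 had 147.5 CPM (318 to 482 in the others). The collagens did not follow the higher mean of Postn in DKO mice: Col3a1 had a mean of 510 CPM in Nf2 and 353 CPM in DKO mice. For Nell1 the most alike were Tspear (r = 0.822), Mrgpra14 (0.812) and Gimap8 (0.792), with a rho of 0.825, 0.748 and 0.804 and an r without the 2 farthest mice of 0.776, 0.453 and 0.639. For Fndc1 they were Lmcd1 (0.859), Tnxb (0.856) and Myh2 (0.849), with a rho of 0.685, 0.874 and 0.881 and an r without the 2 farthest mice of 0.735, 0.875 and 0.705. Myh2 encodes a myosin of fast skeletal muscle and a member of the muscle marker list.

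Markers of 13 tissues or cell types that the dissected sample could hold were set beside the 10 genes. Schwann cell markers summed to 12710 to 16040 CPM in Nf2 and 11700 to 15860 CPM in DKO mice, with 0 of 15 past the threshold in edgeR, 2 in DESeq2 and in limma voom, and 2 at an unadjusted p under 0.05 in edgeR (Cdh19 and Ncam1, both lower). Fibroblast markers summed to 2310 to 2979 CPM in Nf2 and 2165 to 2954 CPM in DKO mice. Meningeal markers, whose sum is mostly Cdh1 and Zic1, were higher in DKO by fitted value in 10 of 11 (median log2 fold change 1.01). Of these 0 passed in edgeR, 1 in limma voom (Slc22a6) and 4 in DESeq2 (Aldh1a2, Slc13a4, Slc22a6 and Slc6a13), and 9 had an unadjusted p under 0.05 in edgeR. Higher as well were markers of spinal cord neurons and glia, by fitted value in 10 of 11 (median 0.55), with 341.9 to 698.5 CPM in DKO and 288.5 to 482.8 CPM in Nf2 mice. This sum, in which Slc17a6 and Gfap were the most abundant, is not a measure of spinal cord tissue alone. In the perineurium list (501.2 to 689.3 CPM in DKO, 629.8 to 798 in Nf2) 8 of 10 were higher by fitted value (median log2 fold change 0.34), and 1 gene passed, Sfrp5, the most abundant of the list, which was lower at -0.98 (edgeR adjusted p of 0.00256). In the macrophage list (260.8 to 379.3 CPM in DKO, 283.3 to 420.5 in Nf2) 9 of 10 were lower by fitted value and 1 passed, C1qb at -0.71 (edgeR adjusted p of 0.0138). Tendon markers summed to 64.6 to 147.9 CPM in DKO and 82.2 to 113.8 CPM in Nf2 mice, and those of cartilage and bone to 17.2 to 23.8 and 19.7 to 29.0 CPM. Smooth muscle markers summed to 104.4 to 167.4 CPM in DKO and 115.5 to 196.8 in Nf2 mice, and endothelial ones to 127.5 to 234.2 and 107.7 to 165.8 CPM. No marker was at 0 in all mice, while Matn1, Matn3, Tnmd, Kera, Ptx4 and Chat were at 0 in some.

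Within genotypes, 0 of the 130 pairs of a gene and a marker list passed the permutation test after adjustment, and 18 had an unadjusted p under 0.05. Matn4 and the meningeal list came closest, with a Pearson r of -0.90 over 12 mice (permutation p = 0.00039, adjusted p = 0.0507) and a Spearman rho of -0.81 (permutation p = 0.00457). For this pair r was -0.82 without the 2 farthest mice, -0.91 within Nf2 and -0.95 within DKO mice. Thbs4 ran the other way with the same list (r = 0.82, permutation p = 0.00352, adjusted p = 0.0834, rho = 0.71 with permutation p = 0.0133, r = 0.59 without the 2 farthest mice). Tgfbi followed the fibroblast list (r = 0.83, permutation p = 0.00101, adjusted p = 0.0657, rho = 0.89 with permutation p = 0.0008, r = 0.83 without the 2 farthest mice). Matn4 also followed the sensory neuron list (r = 0.83, permutation p = 0.00176, adjusted p = 0.0763, rho = 0.76 with permutation p = 0.0119, r = 0.79 without the 2 farthest mice). With the perineurium list r was 0.81 for Thbs4 (permutation p = 0.00273, rho = 0.74 with permutation p = 0.00965, r = 0.66 without the 2 farthest mice) and -0.79 for Matn4 (permutation p = 0.00385, rho = -0.61 with permutation p = 0.0487, r = -0.62), both with an adjusted p of 0.0834. The part of these tissues in the levels of Matn4, Thbs4 and Tgfbi was not tested.

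**Figure D4:**
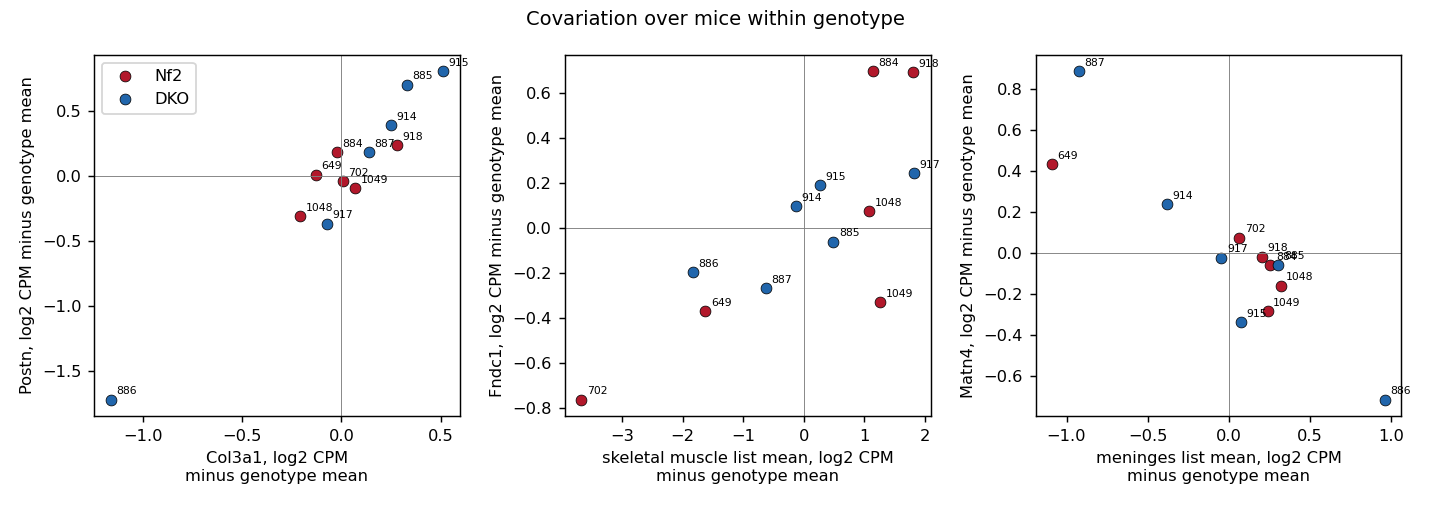
Deviation from the genotype mean in log2 CPM, 1 point per mouse (red Nf2, blue DKO), of Postn against Col3a1 (left), Fndc1 against the mean of the skeletal muscle list (middle) and Matn4 against the mean of the meninges list (right). Over 12 mice r was 0.969, 0.77 and -0.90, with DKO mouse 886 at an end of the left and right panels and Nf2 mouse 702 at the lower end of the middle one.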

How the data were processed

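Poly(A) libraries of DRG RNA from 12 mice were prepared and sequenced by a commercial provider. The values deposited by the authors are raw read counts for each gene in each mouse, not normalized. Per the submitters' processing notes, Trimmomatic 0.36, STAR 2.5.2b, featureCounts from Subread 1.5.2 and the GRCm38 assembly were used. The annotation release, strand setting and treatment of reads with several matches are not given in the sources used here. They would bear on genes that overlap or resemble another.

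Counts were fitted over the whole table in R 4.3.3 with edgeR 4.0.16 (filterByExpr by genotype, trimmed mean of M values, quasi-likelihood F test, Benjamini-Hochberg adjustment, threshold 0.05). The standard error was taken from the fold change and the F statistic. CPM used library totals, and CPM per kb the union of exons in GENCODE M21, which held 99.3% of the gene identifiers. Counting error was 1.37% to 16.4% of the lowest count of each gene. Correlations used log2 CPM with a prior count of 2 and 100000 two-sided permutations within genotype in scipy 1.17.1. The fits of DKO against Nf2 were also run on simulated negative binomial counts of independent mice. Such counts cannot show how the fits handle variation that several genes share within a mouse, and no conclusion is drawn from them. DESeq2 1.42.0 and limma 3.58.1 (voom with sample weights) were alternatives, beside other scalings, count filters, covariates and subsets of mice. Mouse numbers were not shared between genotypes, so the design held no pairs.

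The 10 genes and all lists were chosen with earlier results of these data known. Of the lists outside the 10 genes, 6 of 254 genes occurred in more than 1. Besides the 10 genes, those named were up to 3 past the threshold in a list or the 1 of smallest p, the 5 genes most like Postn and the 3 most like Nell1 and Fndc1 (mean of at least 1 CPM, symbol other than Gm or Rik), the most abundant markers of a list that moved with a gene, and the targeted genes. The genes behind counts of 5 or fewer in the lists, those called by DESeq2 or limma voom alone, and the sex-linked and interaction genes were named outside this rule, after their values were seen.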

Additional observations from a re-analysis of the deposited data

Results flagged for a closer look

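In the 20 groups of 6 mice (10 genes in each genotype), 1 mouse stood apart from its group by Dixon's criterion at the 95% level, where chance gives about 1. The criterion was applied to log2 CPM (ratio of 0.739), and the count of 1 holds for that scale. DKO mouse 885 had 2.62 CPM of Megf6, the lowest DKO value, while the next lowest was 5.23 CPM and every Nf2 mouse was at 2.24 CPM or below. Without mouse 885 the log2 fold change of Megf6 remained past the threshold, as it did without any other single mouse.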

How the results depend on the processing

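Over 23 alternatives for each of the 10 fold changes (230 in all, 12 per gene leaving out 1 mouse), 182 kept direction and side of the threshold, 39 fell below it, 1 rose above it (Thbs4 in DESeq2, 0.99) and 8 changed sign. All 8 were Tnc: -0.0103 in males only, -0.27 in males without mouse 702 (added after these data were seen), -0.0737 without mouse 702, and -0.11 to 0.17 over the fits without 1 mouse. The count of 5 genes past the threshold was 2 with the skeletal muscle level as a covariate (Matn4 and Megf6), 3 without mouse 702, 0 in females only, 0 in males only and 0 in males without mouse 702, and 1 to 5 over the fits without 1 mouse. Calls over all genes changed as well, to 99 with the muscle covariate, 114 without mouse 702 and 81 to 217 over the fits without 1 mouse. The subsets hold at most 3 mice per genotype, and the whole table gave 57 calls in females, 2 in males and 9 in males without mouse 702, against 172 in all mice, 845 in DESeq2 and 521 in limma voom. Itga8 was lost (0 receptors) in females only, in males only and in males without mouse 702. The count of other matrix glycoproteins, 0 in edgeR, was 6 in DESeq2, 4 in limma voom, 1 with at least 1 count in any mouse as the filter, and 0 to 2 without 1 mouse. TGF-beta signalling had 1 call in DESeq2. Among marker lists, skeletal muscle (0 in edgeR) had 1 call in DESeq2, 4 in females only, 1 without mouse 702 and 0 to 1 over the fits without 1 mouse. Schwann cells (0) had 2 in DESeq2 and in limma voom, meninges (0) had 4 and 1, and each had 0 to 1 without 1 mouse (the 1 without 915 and without 887). Perineurium (1) had 2 in DESeq2 and 0 in females only, males only and males without mouse 702. Of the 2 correlated pairs of genes, 0 passed on library totals, 0 without mouse 702 and 0 with Spearman's rho, and 2 pairs of a gene and a marker list passed on library totals (Matn4 with meninges, Tgfbi with fibroblasts). The cause of these changes was not tested. No scaling moved the median of all genes by over 0.1 on the log2 scale. The counts of 37 (Nell1) and 42 (Megf6) limit the lowest values. No paired analysis was possible because the groups share no mouse number.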
